A study of Mus musculus with 12 samples.

Results

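Lgr5, Ascl2, Smoc2, Sox9, Msi1, Olfm4, Prom1 and Slc12a2 are genes by which stem and progenitor cells of the intestinal epithelium are recognised, and they were read by symbol from a deposited table of 25705 genes. All 8 symbols occur once in the table. RNA had been sequenced from colonic adenomas of C57BL/6J mice killed at 150 to 160 days, with 4 groups of 3 libraries and no treatment. The Tet1-null group is Tet1-/- Tdg+/+ ApcMin/+, and the double-heterozygous group is Tet1+/- TdgN151A/+ ApcMin/+. The Tdg-heterozygous group is Tet1+/+ TdgN151A/+ ApcMin/+, and the control group is Tet1+/+ Tdg+/+ ApcMin/+. All groups, the controls included, therefore carry ApcMin, a truncating allele of the tumour suppressor gene Apc that gives rise to intestinal adenomas. Tet1 encodes an enzyme that oxidises 5-methylcytosine. Oxidised bases are cut out by the glycosylase that Tdg encodes, and N151A is a change in that protein. The labels do not say whether each sample is a separate animal, so p-values measure the spread between samples, which may be partly technical. Each library is called by its group with its column number, which runs between 0 and 2.

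Stem cells at the base of the intestinal crypt divide throughout life and depend on Wnt signals, which R-spondins strengthen by acting through receptors that include Lgr5. Ascl2 is a transcription factor that works with the Wnt effector beta-catenin to set the stem cell programme. Loss of Apc activates the same pathway without a Wnt ligand, and adenomas that follow contain cells with the stem cell programme. In the mouse, Olfm4 marks stem cells of the small intestine and is not a marker of the normal colon. RNA from whole adenomas mixes many cell types, so fewer stem cells and less RNA per stem cell cannot be told apart.

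The values are FPKM, fragment counts scaled to transcript length and to the mapped total, which can be compared between genes. Their sum per library ranged from 663551 to 977282, and 13692 to 14384 genes per library reached 1 FPKM. The lowest sum was that of Tet1-null library 0. Tdg-heterozygous library 2 (977282) and Tet1-null library 1 (872289) had the highest sums. Both also had the fewest genes at 1 FPKM, 13692 and 13873. The part of this in the levels of single genes in these libraries was not tested. The depth in reads is unknown. Tet1 RNA was near the floor, at 0.621, 0.199 and 0.163 FPKM in Tet1-null adenomas against 0.403, 0.478 and 0.422 FPKM in the controls, so whole-gene FPKM does not check that genotype. Tdg had 33.5 ± 5.36 FPKM in Tet1-null, 37.4 ± 2.41 FPKM in double-heterozygous, 28.8 ± 2.65 FPKM in Tdg-heterozygous and 34.2 ± 4.03 FPKM in control libraries (SD, n = 3 each), and the level of RNA does not check a change in the protein. Epithelial markers were present in all libraries (6 of 6 in the table), with 753 FPKM of Epcam at the lowest. Lyz1, a gene of Paneth cells, which the normal mouse colon lacks, had 123 FPKM or more in every library. More than 10 FPKM of Xist, which female cells express, was found in 1 Tet1-null library, 0 double-heterozygous libraries, 2 Tdg-heterozygous libraries and 2 control libraries, so the sexes were not balanced.

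The 8 genes covered a wide range of levels. By the median over the 12 libraries the order was Slc12a2 (134 FPKM), Prom1 (112), Smoc2 (82.6), Lgr5 (41.2), Sox9 (41.02), Ascl2 (28.4), Msi1 (5.14) and Olfm4 (0.0558). Lgr5 and Sox9 are neighbours that do not differ beyond the spread of their libraries, and neither do Prom1 and Slc12a2. A gene was tested when it had at least 1 FPKM in at least 3 libraries, which 7 of the 8 genes and 15150 of all genes did. Olfm4 did not reach 1 FPKM in any library and was not tested.

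Lgr5 (ENSMUSG00000020140, chr10:115450311-115587780, mm10, protein-coding) had 13.6, 5.14 and 68.3 FPKM in Tet1-null libraries 0, 1 and 2. The double-heterozygous libraries had 53.8, 60.02 and 41.8 FPKM, and the Tdg-heterozygous libraries 40.6, 37.1 and 13.5 FPKM. Lgr5 was at 43.3, 54.1 and 35.0 FPKM in control adenomas. The Tet1-null group thus held both the highest and the lowest library of all 12, 13.3-fold apart, and it overlapped the controls. Its mean was 29.0 ± 34.3 FPKM (SD, n = 3) against 44.1 ± 9.60 FPKM in the controls, and its SD between libraries was larger than the difference of the means. All 3 double-heterozygous libraries lay above all 3 Tdg-heterozygous ones, with 41.8 against 40.6 FPKM at the closest. The same was so for 4.70% of all tested genes.

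Ascl2 (ENSMUSG00000009248, chr7:142966829-142969264) had 27.5, 3.28 and 25.0 FPKM in Tet1-null adenomas, 10.7, 35.5 and 33.7 FPKM in the double-heterozygous libraries, 36.5, 26.7 and 7.87 FPKM in the Tdg-heterozygous libraries and 29.3, 31.1 and 30.1 FPKM in the controls. The 3 controls were close to each other, whereas each mutant group held 1 library far below them. The 3 Tet1-null libraries were all below the controls, and 2 of them by a small margin. Such a lack of overlap was found for 2.20% of all tested genes.

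Smoc2 (ENSMUSG00000023886, chr17:14279506-14404790) encodes a secreted matricellular protein. It had 59.2, 26.0 and 89.2 FPKM in Tet1-null adenomas, 46.9, 92.2 and 83.3 FPKM in the double-heterozygous libraries, 81.9, 63.8 and 24.4 FPKM in the Tdg-heterozygous libraries and 85.5, 115 and 86.2 FPKM in the controls. Its low libraries were those of Ascl2, and the Tdg-heterozygous libraries did not overlap the controls (81.9 against 85.5 FPKM at the closest). Sox9 (ENSMUSG00000000567, chr11:112782224-112787760), a transcription factor of crypt stem, progenitor and Paneth cells, had 27.8, 21.9 and 61.6 FPKM in Tet1-null adenomas. It had 32.1, 50.7 and 41.9 FPKM in the double-heterozygous, 40.2, 36.9 and 30.7 FPKM in the Tdg-heterozygous and 48.4, 47.9 and 53.3 FPKM in the control libraries. Sox9 varied the least of the 4 genes, 2.81-fold from its highest to its lowest library. Its Tdg-heterozygous libraries also lay below all controls, as was so for 2.40% of all tested genes.

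Msi1 (ENSMUSG00000054256, chr5:115429599-115455698), which encodes the RNA-binding protein Musashi-1, had 9.41, 0.180 and 4.99 FPKM in Tet1-null adenomas, 1.35, 5.74 and 4.02 FPKM in the double-heterozygous libraries, 5.75, 5.41 and 0.490 FPKM in the Tdg-heterozygous libraries and 5.33, 3.46 and 5.28 FPKM in the controls. Its 3 lowest libraries were the 3 lowest of Ascl2, in the same order. The highest and the lowest library were both Tet1-null, and the lowest values are too near the floor for a fold to be read.

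Prom1 and Slc12a2 had a different order of libraries. Prom1 (ENSMUSG00000029086, chr5:43993620-44102032), the gene of the membrane protein CD133, had 69.7, 104 and 220.0 FPKM in the Tet1-null, 149, 111 and 81.5 FPKM in the double-heterozygous, 115, 113 and 149 FPKM in the Tdg-heterozygous and 138, 109 and 89.5 FPKM in the control libraries. Slc12a2 (ENSMUSG00000024597, chr18:57878678-57946821), the gene of the sodium-potassium-chloride cotransporter of crypt cells, had 67.2, 136 and 107 FPKM in Tet1-null adenomas. It had 210.3, 167 and 162 FPKM in the double-heterozygous, 129, 117 and 183 FPKM in the Tdg-heterozygous and 133, 205 and 126 FPKM in the control libraries. The libraries with little Ascl2 were not low in either gene. Tet1-null library 0 was the lowest of all 12 for both.

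Olfm4 (ENSMUSG00000022026, chr14:79984081-80023139), a secreted glycoprotein gene and Notch target, stayed between 0.0288 and 0.692 FPKM. Its 3 highest libraries, double-heterozygous 0 (0.692 FPKM), Tdg-heterozygous 2 (0.517 FPKM) and Tet1-null 1 (0.213 FPKM), were the 3 lowest for Ascl2, at levels too low for a fold to be read.

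**Figure D1:**
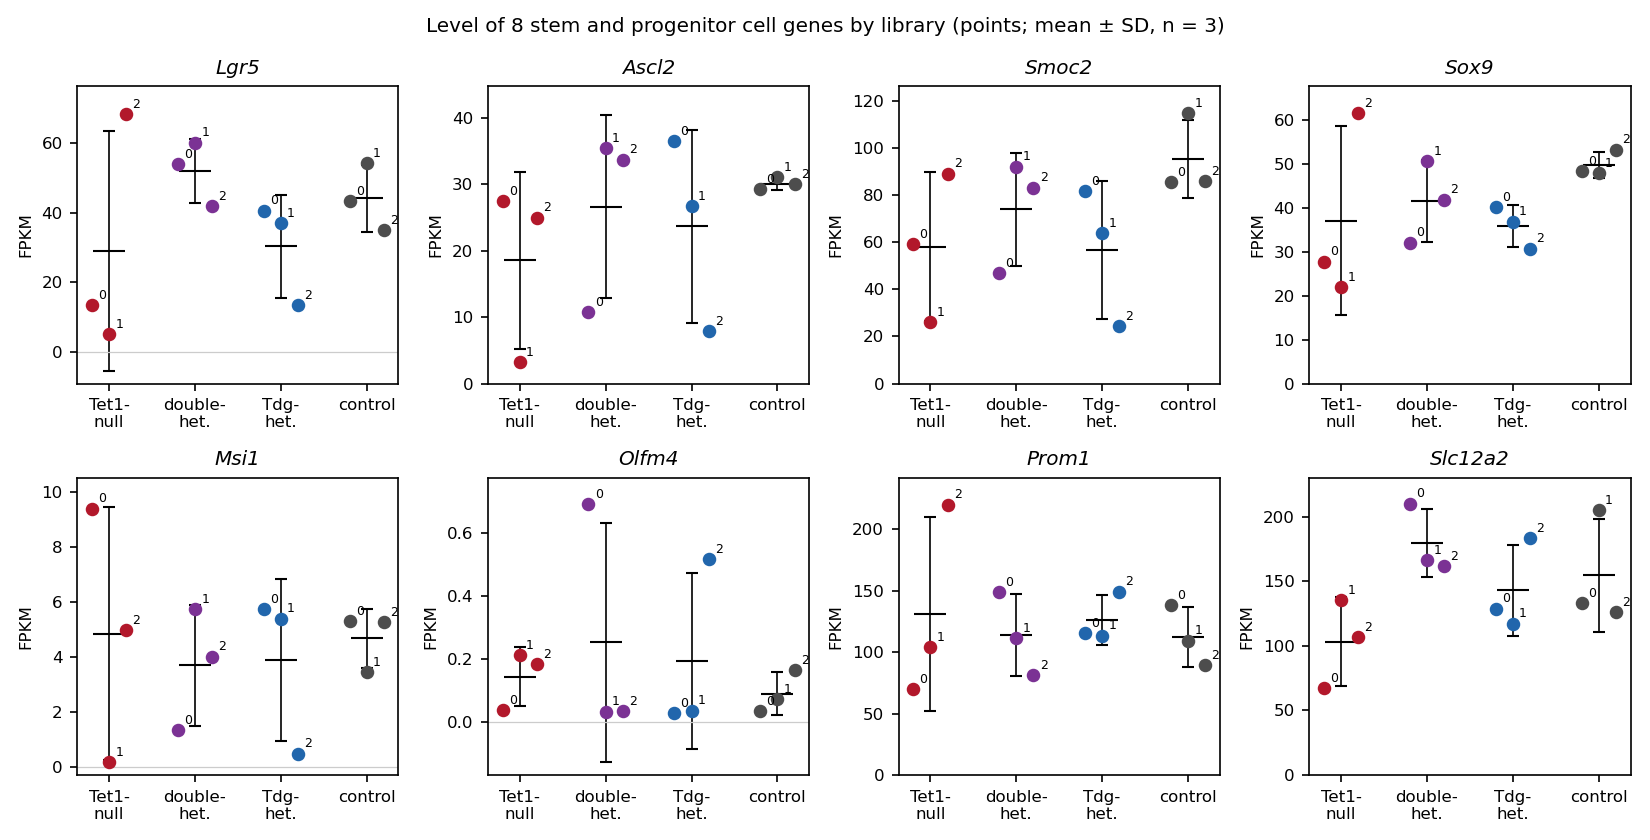
FPKM (vertical axis, linear) of the 8 genes in each library, with the group on the horizontal axis, the library number beside each point and the mean ± SD (n = 3) as a bar. Ascl2 and Msi1 each have 1 low point in every mutant group and none in the controls, while Prom1 and Slc12a2 do not have that pattern.

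Promoter windows of 300 bases, from 250 before to 50 after a start site, were taken from RefSeq (GRCm38.p6, the patched form of mm10). They are given for 3 of the 8 genes. Any window on the chromosome of Slc12a2 was left out, so that gene was not examined here. The 3 genes, Ascl2, Prom1 and Olfm4, were not chosen by their levels. Each had a different pattern above: low together with other stem cell genes in single libraries, not low there, and near the floor everywhere. Capitals mark the TCF/LEF core TCAAAG and the Notch effector (CSL) core TGGGAA on either strand. The windows are Ascl2 (chr7:142969215-142969514, minus strand), Olfm4 (chr14:80000052-80000351, plus strand), Prom1 upstream (chr5:44101687-44101986, minus strand) and Prom1 downstream (chr5:44094719-44095018, minus strand).
Ascl2: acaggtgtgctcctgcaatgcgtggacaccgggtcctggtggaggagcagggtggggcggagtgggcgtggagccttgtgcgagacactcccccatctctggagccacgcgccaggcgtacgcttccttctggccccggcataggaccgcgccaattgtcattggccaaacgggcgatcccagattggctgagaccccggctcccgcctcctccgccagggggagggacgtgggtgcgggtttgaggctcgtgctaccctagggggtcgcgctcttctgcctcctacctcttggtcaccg
Olfm4: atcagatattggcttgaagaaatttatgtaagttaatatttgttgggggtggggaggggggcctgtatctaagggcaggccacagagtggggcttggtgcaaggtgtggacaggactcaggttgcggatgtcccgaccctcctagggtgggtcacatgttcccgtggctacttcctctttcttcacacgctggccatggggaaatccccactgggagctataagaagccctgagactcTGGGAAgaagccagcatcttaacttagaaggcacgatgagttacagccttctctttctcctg
Prom1 upstream: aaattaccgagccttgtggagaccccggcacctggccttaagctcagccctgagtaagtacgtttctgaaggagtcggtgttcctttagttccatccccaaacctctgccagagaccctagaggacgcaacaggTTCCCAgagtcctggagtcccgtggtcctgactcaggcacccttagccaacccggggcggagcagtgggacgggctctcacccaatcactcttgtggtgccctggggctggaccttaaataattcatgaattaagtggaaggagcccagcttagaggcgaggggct
Prom1 downstream: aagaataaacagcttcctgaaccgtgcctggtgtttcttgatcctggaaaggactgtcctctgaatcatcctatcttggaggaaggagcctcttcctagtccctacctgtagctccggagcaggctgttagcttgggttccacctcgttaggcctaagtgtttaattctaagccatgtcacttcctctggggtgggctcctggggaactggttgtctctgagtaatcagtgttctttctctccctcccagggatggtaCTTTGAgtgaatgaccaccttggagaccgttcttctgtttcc
The Ascl2 window holds neither core, and it is the richest in G and C (67.0%, with 23 CpG). The Olfm4 window (52.3% G and C, 5 CpG) holds 1 CSL core that begins 12 bases before the start site. The upstream Prom1 window holds 1 CSL core on the reverse strand, and the downstream one holds 1 TCF/LEF core on the reverse strand, just after its start site. Of all 32851 windows of this length, 16.0% hold TCAAAG and 25.6% hold TGGGAA. A match describes letters in these windows and is not evidence of binding.

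No group difference of the 7 tested genes passed the threshold of an adjusted p of 0.05. The tests used limma on log2(FPKM + 1) with Benjamini-Hochberg adjustment over all 15150 genes tested. Differences below are on that scale, which understates those of genes at low levels such as Msi1. The share of all tested genes that passed was 0.0132% between Tet1-null and control samples, and 0 of the 7 passed. It was 0.0198% between double-heterozygous and control samples and 0.0198% between Tdg-heterozygous and control samples, again with 0 of the 7. Between double-heterozygous and Tdg-heterozygous samples 0% of all genes passed (231 genes at an unadjusted p under 0.05). A test for any difference among the 4 groups passed 0.0264% of genes and 0 of the 7. At an unadjusted p under 0.05 limma also gave 0 of the 7 in each comparison, beside 1.63% of tested genes for Tet1-null, 1.17% for double-heterozygous and 0.898% for Tdg-heterozygous samples against controls, and 1.52% for double-heterozygous against Tdg-heterozygous samples.

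Tet1-null samples were compared with controls to see what loss of Tet1 alters in ApcMin adenomas. Here 6 of the 7 genes had values below 0, with a median log2 difference of -0.60, beside a median of 0.03 over all tested genes. Lgr5 had the most negative difference, -1.27 (SE 0.74, 95% interval -2.91 to 0.36), and Ascl2 had -1.08 (SE 0.77, interval -2.81 to 0.64). Slc12a2 had the smallest p, with 103 ± 34.3 against 155 ± 43.7 FPKM (SD, n = 3 each) and a log2 difference of -0.60 (SE 0.29, interval -1.24 to 0.03). It was -0.32 without Tet1-null library 0 and -0.38 without control library 1. All adjusted p-values of limma were 1. Ascl2 was the 1 gene of the 7 whose libraries did not overlap (lower), as was so for 2.20% of all tested genes, with 3.44% higher. Single libraries weighed heavily on these estimates. Without Tet1-null library 1 the difference was -0.48 for Lgr5, -0.19 for Ascl2 and 0.49 for Msi1, against -0.42 for Msi1 with all libraries. Without Tet1-null library 2 that of Lgr5 was -2.23. With libraries weighted by their variability the directions reversed, to 0.37 for Lgr5, 0.14 for Sox9 and 0.04 for Msi1.

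Double-heterozygous samples were compared with controls to see what 1 altered allele of each gene does. Their mean of Lgr5 was 51.9 ± 9.26 against 44.1 ± 9.60 FPKM (SD, n = 3 each), a log2 difference of 0.23 (SE 0.74, interval -1.40 to 1.87). Smoc2 had 74.1 ± 24.0 against 95.5 ± 16.7 FPKM (log2 difference -0.40) and Sox9 41.6 ± 9.31 against 49.8 ± 2.97 FPKM (log2 difference -0.28). Over the 7 genes the median was -0.28, beside 0.05 over all tested genes, and 5 of the 7 were below 0. Every adjusted p of limma was 1, and none of the 7 genes was free of overlap (2.01% of tested genes were lower and 5.78% higher without overlap). Without double-heterozygous library 0 the difference of Ascl2 was 0.19, against -0.34 with it, and that of Msi1 was 0.05, against -0.39 with it.

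Tdg-heterozygous samples were set against controls for the effect of 1 TdgN151A allele. Smoc2 had 56.7 ± 29.4 against 95.5 ± 16.7 FPKM (SD, n = 3 each), a log2 difference of -0.89 (SE 0.51, interval -2.03 to 0.25). Sox9 had 35.9 ± 4.80 against 49.8 ± 2.97 FPKM, a log2 difference of -0.47 (SE 0.32, interval -1.19 to 0.25). These 2 of the 7 genes were lower without overlap, as were 2.40% of all tested genes, with 1.61% higher. The median of the 7 was -0.49, beside -0.01 over all genes, and 6 were below 0. Limma's adjusted p was 1 for each of the 7. Without Tdg-heterozygous library 2 the difference of Smoc2 was -0.38 and that of Sox9 -0.36, while Ascl2 had 0.05 in place of -0.57. The 3 comparisons above share the same control libraries, so their values are not independent.

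Double-heterozygous and Tdg-heterozygous samples differ by 1 Tet1 allele. Lgr5 had 51.9 ± 9.26 against 30.4 ± 14.8 FPKM (SD, n = 3 each), a log2 difference of 0.88 (SE 0.74, interval -0.76 to 2.52). It was higher without overlap, as were 4.70% of tested genes (0.898% lower), and limma's adjusted p was 1. The median of the 7 was 0.23, beside 0.05 over all tested genes. Values above 0 were seen in 6 of the 7 and in 59.9% of all tested genes. Prom1 was the exception at -0.17. Without Tdg-heterozygous library 2 the difference of Lgr5 was 0.39 and that of Ascl2 -0.39.

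**Figure D2:**
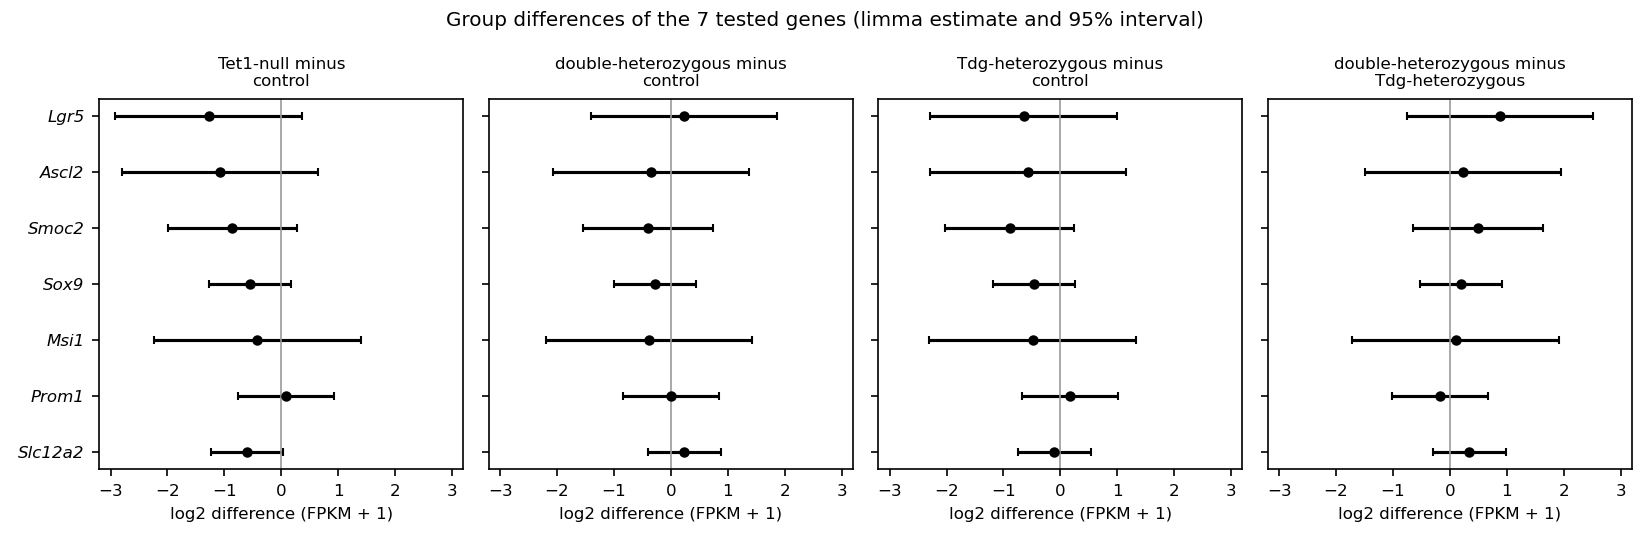
Log2 differences in log2(FPKM + 1) of the 7 tested genes (horizontal axis) in each of the 4 comparisons, as the limma estimate (point) with its 95% interval (line). Every interval includes 0, and those of Lgr5, Ascl2 and Msi1 are the widest.

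The spread within groups was large for part of the set. On the log2 scale the SD within groups was 1.11 for Msi1, 1.05 for Ascl2, 1.00 for Lgr5 and 0.69 for Smoc2, against a median of 0.33 over all tested genes. For Msi1 this lies at the 92.4th percentile of tested genes. Prom1 (0.51), Sox9 (0.43) and Slc12a2 (0.37) were closer to the median. The 4 libraries that deviated most from the controls are given next as single values, with no test.

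Tet1-null library 1 had 11.7% of the control mean of Lgr5, 10.9% of Ascl2, 27.2% of Smoc2, 44.0% of Sox9 and 3.85% of Msi1. It had 92.5% of that of Prom1 and 87.6% of that of Slc12a2. Tdg-heterozygous library 2 was similar, with 30.5% of the control mean of Lgr5, 26.1% of Ascl2, 25.5% of Smoc2, 61.6% of Sox9 and 10.5% of Msi1. Prom1 was at 133% and Slc12a2 at 118% of the control mean in it. The Wnt feedback genes Axin2 and Notum were low in the same libraries. Axin2 had 9.98 FPKM in Tet1-null library 1 and 21.1 FPKM in Tdg-heterozygous library 2, against 104 to 123 FPKM in the controls. Notum had 0.700 FPKM in Tet1-null library 1 and 8.53 FPKM in Tdg-heterozygous library 2, against 137 to 201 FPKM in the controls.

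Double-heterozygous library 0 separated Ascl2 from Lgr5. It had 35.6% of the control mean of Ascl2 and 28.8% of Msi1, but 122% of that of Lgr5. Smoc2 was at 49.1% and Sox9 at 64.4% in it. Axin2 (62.9 FPKM) and Notum (49.8 FPKM) were also below all controls there. Tet1-null library 0 had the opposite combination, with 30.8% of the control mean of Lgr5, 91.3% of Ascl2 and 201% of Msi1. In that library Axin2 (173 FPKM) and Rnf43 (182 FPKM), a ubiquitin ligase that removes Wnt receptors, were above all controls (at most 123 FPKM of Axin2 and 119 FPKM of Rnf43). Low Lgr5 in it therefore stood beside high, not low, Axin2.

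**Figure D3:**
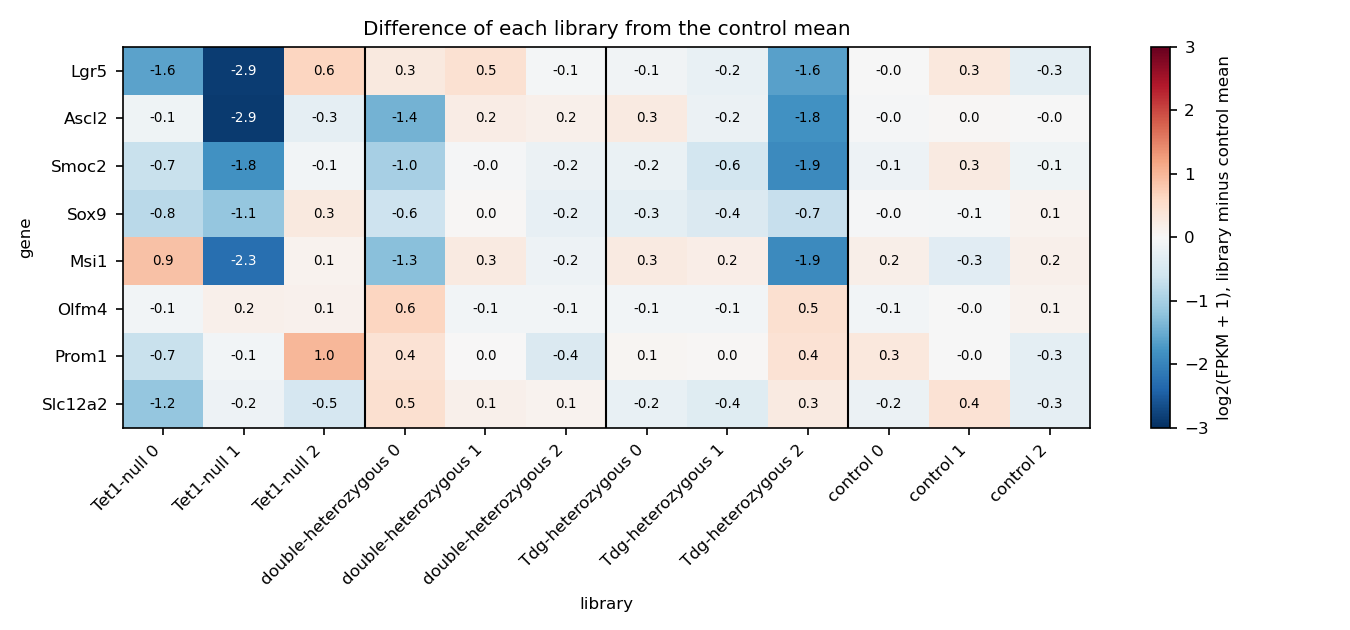
Difference of each library (columns, with black lines between the groups) from the control mean in log2(FPKM + 1) for the 8 genes (rows), blue for below and red for above. Tet1-null 1 and Tdg-heterozygous 2 are low for Lgr5, Ascl2, Smoc2, Sox9 and Msi1, double-heterozygous 0 is low for Ascl2 and Msi1 but not Lgr5, and Tet1-null 0 is low for Lgr5 but not Ascl2 or Msi1.

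Epithelial markers and markers of other cells varied along with these libraries. The 6 epithelial markers, none at 0, summed to 2980.2 to 9337 FPKM in the Tet1-null, 3964 to 6921 FPKM in the double-heterozygous, 3791 to 12323 FPKM in the Tdg-heterozygous and 3729.8 to 5744 FPKM in the control libraries. Their 3 highest sums were in Tdg-heterozygous 2, Tet1-null 1 and double-heterozygous 0, the libraries lowest in Ascl2. The 7 neutrophil markers, all in the table, summed to 123 to 1602 FPKM in the Tet1-null, 238 to 3283 FPKM in the double-heterozygous, 609 to 6201 FPKM in the Tdg-heterozygous and 198 to 295 FPKM in the control libraries. The 3 highest sums belonged to these libraries as well, while Mpo was listed at 0 in single Tet1-null and Tdg-heterozygous libraries. Macrophage markers (6 of 7 in the table) instead had their lowest sums there. These were 154 FPKM in Tet1-null 1, 143 FPKM in double-heterozygous 0 and 198 FPKM in Tdg-heterozygous 2. The next lowest was double-heterozygous 2 with 213 FPKM, and the controls had 295 to 729 FPKM. Of 10 colonocyte markers 9 are in the table, and their sums were 144 to 1751, 203 to 689, 279 to 2009 and 242 to 1259 FPKM for the groups as ordered above, with no marker at 0. The 2009 FPKM were from Tdg-heterozygous library 2 and the 1751 FPKM from Tet1-null library 1, both low in Ascl2. Control library 0, with 1259 FPKM of colonocyte markers, had 29.3 FPKM of Ascl2, close to the other controls. Smooth muscle markers (7 of 7 in the table, none at 0) summed to 89.5 to 682, 121 to 139, 54.6 to 164 and 89.6 to 210.4 FPKM in that order. The 682 FPKM were from Tet1-null library 1 and the 54.6 FPKM from Tdg-heterozygous library 2. Paneth cell markers (8 of 8 in the table) summed to 169 to 2414, 2207 to 4083, 1009.5 to 3411 and 3245 to 4512 FPKM, and Defa17 and Defa21 were listed at 0 in a Tet1-null library. The part of these cells in the levels of the stem cell genes was not tested.

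**Figure D4:**
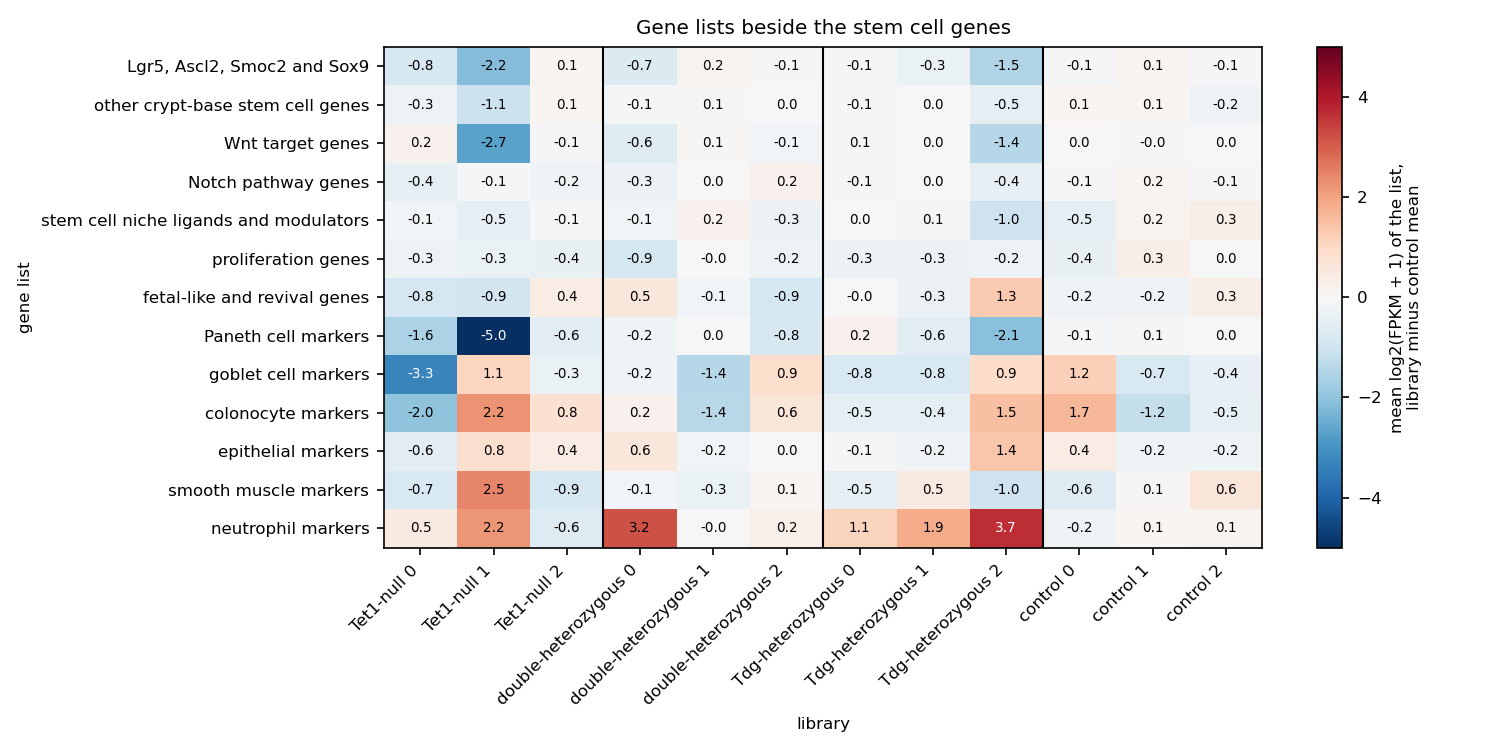
Mean difference from the control mean in log2(FPKM + 1) over the tested genes of each list (rows) in each library (columns, with black lines between the groups). The row of Lgr5, Ascl2, Smoc2 and Sox9 and that of Wnt target genes share their lowest columns, Tet1-null 1 and Tdg-heterozygous 2, while neutrophil markers are highest in Tdg-heterozygous 2, double-heterozygous 0 and Tet1-null 1. Some lists share genes, so rows are not independent. Axin2 and Cd44 are among both the other crypt-base and the Wnt target genes, and Mmp7 among Wnt target genes and Paneth cell markers.

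Pairwise likeness depended in part on the libraries that deviated most. Over the 12 libraries, which share their tissue and scaling, Pearson's r of log2(FPKM + 1) was 0.92 between Ascl2 and Msi1, 0.91 between Ascl2 and Smoc2 and 0.84 between Lgr5 and Sox9. Prom1 and Slc12a2 had r of -0.21 and -0.22 with Ascl2. Ascl2 and Lgr5 had r = 0.73 with all libraries and -0.13 without the 2 that were farthest from the median, Tet1-null 1 and Tdg-heterozygous 2, so their likeness rests on those libraries. Without the same libraries Lgr5 had r = -0.59 with Msi1, 0.74 with Prom1 and 0.73 with Slc12a2, against 0.54, 0.35 and 0.28 with all 12. Smoc2 and Msi1 had 0.25 without them and 0.81 with all 12. Ascl2 and Msi1 had r = 0.72, Ascl2 and Smoc2 0.74 and Lgr5 and Sox9 0.68 without them. Double-heterozygous library 0, low in Ascl2 (10.7 FPKM), Msi1 (1.35 FPKM) and Smoc2 (46.9 FPKM), remained among these 10 libraries. How far the likeness of Ascl2, Msi1 and Smoc2 rests on it was not tested. These r describe 28 pairs and carry no test.

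**Figure D5:**
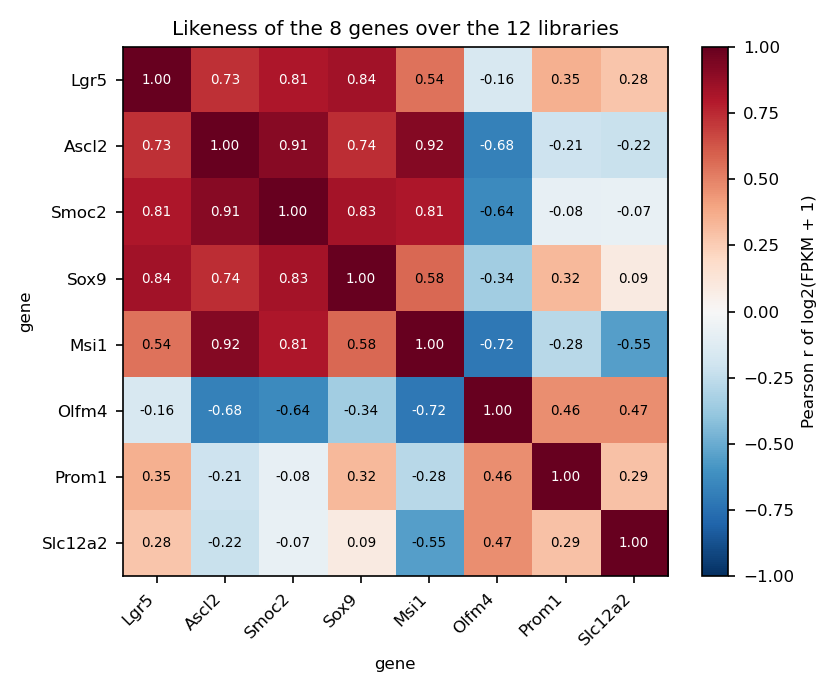
Pearson r of log2(FPKM + 1) over the 12 libraries for each pair of the 8 genes (rows and columns), red for positive and blue for negative. Lgr5, Ascl2, Smoc2, Sox9 and Msi1 have r of 0.54 to 0.92 with each other, and Prom1 and Slc12a2 have r of at most 0.35 with them, but without Tet1-null 1 and Tdg-heterozygous 2 Lgr5 has r of -0.59 with Msi1, -0.13 with Ascl2, 0.74 with Prom1 and 0.73 with Slc12a2.

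Among the other named genes that averaged 5 FPKM or more, 9804 for Msi1 and Olfm4 and 9803 for the rest, the 3 most like each member were listed. For Msi1 they were the Wnt ligand gene Wnt6 (r = 0.99), Rbms3, of an RNA-binding protein (r = 0.98), and the biliverdin reductase gene Blvrb (r = 0.98). Wnt6 had 58.4, 0.825 and 21.7 FPKM in the Tet1-null, 4.57, 30.7 and 19.5 FPKM in the double-heterozygous, 34.1, 29.4 and 1.001 FPKM in the Tdg-heterozygous and 27.7, 20.1 and 39.1 FPKM in the control libraries. Its highest library was Tet1-null 0, as for Msi1. Without Tet1-null 1 and Tdg-heterozygous 2 the r of the 3 genes most like Msi1 was 0.94 to 0.97. That of those most like Ascl2 was 0.89 to 0.95. Without the same libraries it was lower for Lgr5 (0.70 to 0.74) and Smoc2 (0.80 to 0.85). For the other members a different pair was farthest from the median and left out, so their r cover other samples. It was 0.59 to 0.89 for Olfm4, 0.53 to 0.67 for Slc12a2, 0.65 to 0.82 for Prom1 and 0.74 to 0.85 for Sox9. For Msi1 and Ascl2, double-heterozygous library 0, also low in both, was not among the 2 left out. Ascl2 was most like the kinase gene Dmpk (r = 0.98), the zinc finger gene Zfp422 (r = 0.98) and T, which encodes the transcription factor brachyury (r = 0.98). Smoc2 was most like Tmem106c (r = 0.96), the lipid enzyme gene Napepld (r = 0.95) and the cysteine dioxygenase gene Cdo1 (r = 0.95). For Lgr5 the list held Paneth cell products, Defa17 (r = 0.92) and Pla2g2a (r = 0.92), and the matrix gene Thbs2 (r = 0.91). Sox9 was most like Hr (r = 0.89), Habp2 (r = 0.87) and Myc (r = 0.86). Prom1 had the mucin gene Muc4 (r = 0.92), the chaperone cofactor gene Bag3 (r = 0.87) and the malic enzyme gene Me1 (r = 0.86). Slc12a2 had the prostaglandin receptor gene Ptger4 (r = 0.86), Fhdc1 (r = 0.83) and the chloride channel gene Clic6 (r = 0.82). At its low level Olfm4 followed the hypoxia-induced gene Egln3 (r = 0.96), Apaf1 (r = 0.95) and Rassf1 (r = 0.95).

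Other crypt-base stem cell genes, a list of 14 that were all tested, also gave 0 that passed in either direction in each of the 4 comparisons. Their median log2 difference was -0.47 between Tet1-null and control samples (11 of 14 below 0), -0.04 for double-heterozygous (9 of 14) and -0.40 for Tdg-heterozygous samples against controls (8 of 14). Axin2 was at the low end, with 92.9 ± 81.3 against 112 ± 9.52 FPKM between Tet1-null and control samples (SD, n = 3 each), and the water channel gene Aqp4 at the high end, with 22.9 ± 29.1 against 11.4 ± 11.04 FPKM. Tnfrsf19, a receptor gene of these cells, had 16.9, 0.335 and 29.8 FPKM in Tet1-null adenomas against 12.05, 9.92 and 14.4 FPKM in the controls. The membrane regulator gene Lrig1 had 25.1 ± 4.78 against 16.4 ± 3.35 FPKM between double-heterozygous and Tdg-heterozygous samples (log2 difference 0.59), the highest of the list there. Of the Notch pathway list, 9 of 10 genes were tested and 0 passed in the 4 comparisons, with median log2 differences of -0.27, -0.0028, -0.07 and 0.07. Proliferation genes (12 of 12 tested) had 0 that passed, while all 12 had log2 differences below 0 in each comparison with the controls, with medians of -0.31, -0.38 and -0.23. Between Tet1-null and control samples these differences lay between -0.51 for the topoisomerase gene Top2a and -0.09 for Mki67. The summed level of the 12 was 521 FPKM in Tet1-null library 1, 604 FPKM in Tdg-heterozygous library 2 and 360.2 FPKM in double-heterozygous library 0, against 533 to 867 FPKM in the controls. The 533 FPKM were from control library 0. Its mean log2 difference from the control mean over the 12 genes was -0.36, against 0.33 and 0.03 in control libraries 1 and 2. Of all tested genes, 55.0%, 58.4% and 47.1% had differences above 0 in the 3 comparisons with controls, in the order above.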

How the data were processed

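RNA sequencing libraries of 12 colonic adenoma samples were analysed. Per the labels' protocols, they were made from 500 ng of total RNA, read as single ends of 75 nt and aligned to mm10 with TopHat2. The submitters' processing notes also name Cufflinks and Cuffdiff. Versions and annotation are not given in the sources used here. The authors deposited FPKM values, a unit read from the table's name and the tools, and 0 columns were left unused. A column's letter gives its group, but its number is not that of a labelled replicate.

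Values were used as log2(FPKM + 1), for genes with at least 1 FPKM in at least 3 libraries. Limma 3.58.1 in R 4.3.3 fitted 4 group means with a variance trend, and p-values were adjusted by Benjamini-Hochberg over 15150 genes. The script was checked on simulated data. Gene positions are from GENCODE M21. Named genes are the 8 members, Tet1, Tdg, genes of lists that passed or had the highest or lowest difference, and the 3 genes most like each member. Axin2, Notum, Rnf43, Tnfrsf19, Mki67, Lyz1, Epcam, Anxa1, Xist, Tert and cell markers listed at 0 were also named after their values were seen. Members and lists were chosen with earlier results of these data known. Alternatives were pseudocounts of 0.1 and 5, other filters, scalings, variances and weights, only the groups compared, a block and each library left out. Depth is unknown, and 3 libraries a group limit the precision.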

Additional observations from a re-analysis of the deposited data

How the results depend on the processing

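Under all alternatives, 724 values of 28 differences of the 7 genes, none passed, and the smallest adjusted p of limma was 0.138. Directions reversed in 35 of them, for 15 differences. Leaving out each library in turn gave, for Ascl2, -0.62 to 0.19 (double-heterozygous against control), -0.99 to 0.050 (Tdg-heterozygous against control) and -0.39 to 0.76 (double- against Tdg-heterozygous), and for Smoc2 -0.022 to 0.83 in the last. For Msi1 it gave -1.08 to 0.49, -0.71 to 0.051, -0.86 to 0.23 and -0.61 to 0.54 in the 4 comparisons, for Prom1 -0.37 to 0.45, -0.21 to 0.22 and -0.39 to 0.042 (not Tdg-heterozygous against control), and for Slc12a2 -0.29 to 0.12 (Tdg-heterozygous against control). Library weights, which gave Tet1-null library 2 a weight of 5.25 and Tet1-null library 1 one of 0.256, turned the Tet1-null difference of Lgr5 to 0.37, of Sox9 to 0.14 and of Msi1 to 0.038, and that of Msi1 to 0.047 (Tdg-heterozygous against control) and -0.26 (double- against Tdg-heterozygous). Quantile scaling turned the last to -0.032.

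Alternatives chosen after seeing the data left out 3 libraries (Tet1-null 1, Tdg-heterozygous 2 and double-heterozygous 0), added a term for Xist or kept protein-coding genes. Without the 3 libraries Ascl2 had 0.19 (double-heterozygous) and 0.050 (Tdg-heterozygous) against controls, and Msi1 had 0.49, 0.051, 0.23 and -0.18 in the 4 comparisons. With the Xist term Sox9 had 0.0057 and Prom1 0.24 (double-heterozygous against control), and Prom1 had 0.067 and Msi1 -0.0099 (double- against Tdg-heterozygous).

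For Tet1-null against control the genes that passed numbered 2, and 1 with a pseudocount of 5, 4 without a filter, 0 at a mean of 5 FPKM, 236 with library weights, 1 with only the groups compared, 6 without the 3 libraries, 1 with the Xist term and 0 among protein-coding genes. For double-heterozygous against control they numbered 3, and 5 without a filter, 5 with weights, 12 with only these groups, 8 without the 3 libraries and 0 among protein-coding genes. For Tdg-heterozygous against control they numbered 3, and 1, 6, 5 and 0 at a mean of 5 FPKM, with only these groups, without the 3 libraries and among protein-coding genes. For double- against Tdg-heterozygous they numbered 0, and 1 with only these groups and 2 without the 3 libraries, and for any difference 4, and 1, 9 and 0 at a mean of 5 FPKM, without the 3 libraries and among protein-coding genes. Leaving out each library gave 1 to 3, 2 to 5, 2 to 5, 0 to 2 and 3 to 6. The cause was not tested. Columns with the same number had correlations of their deviations of -0.506 to 0.444 and share only a number. The block gave 1 for Tet1-null against control and changed no call of the 7 genes. Scaling to equal sums moved the median of all genes to -0.10 (Tdg-heterozygous against control) and 0.11 (double- against Tdg-heterozygous). With 3 libraries a group and no read counts, small differences were not detectable. The 95% intervals above are not adjusted for the 15150 genes tested. A difference whose interval excludes 0 can therefore still miss the adjusted threshold.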

Other observations

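Genes described for reserve or slowly cycling stem cells (Bmi1, Hopx, Tert, Lrig1, Mex3a and Dclk1, all 6 tested) had 0 that passed in the 4 comparisons. Mex3a, of an RNA-binding protein, had 29.8, 1.86 and 13.9 FPKM in Tet1-null adenomas, 11.9, 21.9 and 15.3 FPKM in the double-heterozygous, 20.7, 17.9 and 5.03 FPKM in the Tdg-heterozygous and 14.2, 22.0 and 21.9 FPKM in the control libraries. Like Msi1 it was lowest in Tet1-null 1 and Tdg-heterozygous 2 and highest in Tet1-null 0. Bmi1, of a Polycomb protein, stayed between 16.5 and 23.9 FPKM in all 12 libraries. The fetal-like gene Anxa1 had 5625 FPKM in Tdg-heterozygous library 2, 1623 FPKM in double-heterozygous library 0 and 1296 FPKM in Tet1-null library 1, against 325 to 565 FPKM in the controls.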
